A study of Xenopus tropicalis x Xenopus laevis and Xenopus tropicalis with 6 samples.

Results

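The pluripotency and genome activation factors are 8 gene names, *pou5f3*, *sall4*, *sall1*, *lin28a*, *lin28b*, *foxh1*, *foxi2* and *foxd3*, followed here copy by copy in a *Xenopus* hybrid that does not survive. Members were found by gene symbol in the deposited feature table, where a feature is a gene model of one species. Symbols were matched after removal of the homeolog ending (L or S), a copy number and the ending -like, and unnamed *X. laevis* models were taken where their human name was a member. The rule took 26 of 45244 features, 10 of them *X. tropicalis* and 16 *X. laevis* (9 on L and 7 on S chromosomes). *X. laevis* is allotetraploid and carries long (L) and short (S) copies of most chromosomes. The hybrid libraries (replicates 40, 41 and 42) came from *X. tropicalis* eggs fertilized with *X. laevis* sperm, so every *X. laevis* transcript in them is of paternal origin. The comparison libraries (replicates 37, 38 and 39) came from *X. tropicalis* embryos. Both groups were whole embryos at 7 hours after fertilization, sequenced as polyA RNA, with 3 libraries each that the series calls biological replicates. The labels do not say how many embryos or which parents went into a library.

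Vertebrate embryos begin with RNA stored in the egg and switch to their own genome at the midblastula transition. Pou5f3 proteins are the frog relatives of the mammalian pluripotency factor Oct4, and with SoxB1 proteins they open chromatin for the first zygotic transcripts. Foxh1 and Foxi2 are forkhead factors laid down as maternal RNA, Foxh1 as the DNA-binding partner of Smad2 in Nodal signalling and Foxi2 as an activator of ectodermal genes in animal cells. Foxd3 is a forkhead repressor used in the early embryo and later in the neural crest. Sall1 and Sall4 are zinc-finger repressors, Sall4 being a partner of Oct4 in mammalian stem cells. Lin28a and Lin28b bind RNA and block maturation of let-7 microRNAs.

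Total counts per library ran from 71435751 to 88526278 in hybrid embryos and from 90144765 to 100025277 in *X. tropicalis*. Members took 0.307 to 0.337% of the counts in hybrid libraries and 0.365 to 0.402% in *X. tropicalis* libraries. Levels are given in CPM, counts brought to a common library size with a composition factor (TMM) from the *X. tropicalis* features. Model lengths were not used, so a share is a share of counts and a level does not compare molecules between models. *X. laevis* features took 15.4 to 17.6% of all counts in hybrid embryos and 5.33 to 5.92% in *X. tropicalis* libraries, and the second range is background because those embryos carry no *X. laevis* genome. How many *X. laevis* reads lay on *X. tropicalis* features is unknown without a pure *X. laevis* library. Genes of the early gastrula were present in both groups, with *gsc* at 41.8 and *t* at 72.5 CPM in hybrid embryos, against *gsc* at 92.5 and *t* at 144.9 CPM in *X. tropicalis*. Of 3 *X. tropicalis* features of later tissues (*actc1*, *hba1*, *rho*), the highest mean was 0.565 CPM, for *rho* in hybrids.

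Of the 10 *X. tropicalis* features, all of which passed the filter on low counts, 4 were lower in hybrids: *foxh1.2*, *pou5f3.1*, *lin28a* and *sall1* (edgeR quasi-likelihood test, Benjamini-Hochberg adjusted p under 0.05 over 14079 features). Over all *X. tropicalis* features tested, 2.95% were lower and 0.824% were higher. No member was called higher with edgeR or with DESeq2, and before adjustment 1 of them, *foxi2*, passed 0.05 in that direction and 6 in the other. The share of all features passing before adjustment was not taken, so those counts are not read against one. The median log2 fold change, hybrid over *X. tropicalis*, was -0.50 over the members and 0.01 over all features tested. The groups did not overlap for 7 of the 10, of which 6 were lower in hybrids. Over all *X. tropicalis* features tested, they did not overlap for 24.6%, with 12.7% lower and 11.8% higher. Hybrids received *X. tropicalis* chromosomes from the egg only, and *X. tropicalis* embryos from both parents. The number of *X. tropicalis* gene copies therefore differs between the groups by design, and its part in lower values was not tested. In whole embryos, fewer gene copies, fewer cells of a type and less RNA per copy or per cell cannot be told apart.

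**Figure D1:**
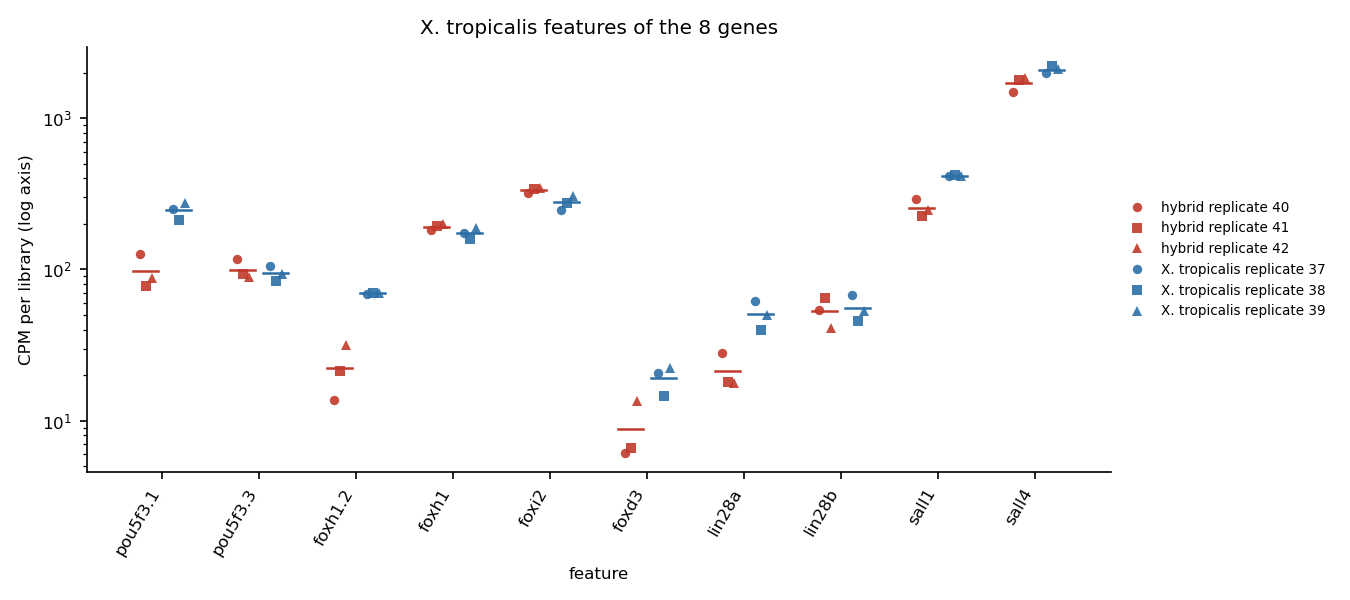
Level of each *X. tropicalis* feature of the members, in CPM on a log axis. Points are single libraries, hybrid in red at the left of each pair and *X. tropicalis* in blue at the right, and bars are means. The points of *pou5f3.1*, *foxh1.2*, *lin28a*, *foxd3*, *sall1* and *sall4* are lower in all hybrid libraries, those of *foxi2* are higher, and those of *pou5f3.3*, *foxh1* and *lin28b* overlap.

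Among the POU factors, *pou5f3.1* stood at 126, 77.9 and 88.1 CPM in hybrids, against 249.6, 212 and 277 CPM in *X. tropicalis*. Every hybrid library lay below every *X. tropicalis* library, and the feature fell by 1.34 ± 0.19 on the log2 scale (SE, edgeR adjusted p = 0.00239). The call held with each library left out in turn and under the other settings tried, with adjusted p up to 0.0155. *pou5f3.3*, a second POU gene whose RNA the egg stores, did not pass. It had 117, 92.8 and 88.5 CPM in hybrid embryos and 106, 83.6 and 93.9 CPM in *X. tropicalis* embryos (log2 fold change 0.08 ± 0.16 SE, adjusted p = 0.884), and its sign turned without hybrid replicate 40, without *X. tropicalis* replicate 38 and with plain library totals.

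The paternal copies of *pou5f3.3* did not pass the test against background. On the L copy, on chromosome 8L, hybrids had 10.9, 14.0 and 12.7 CPM and *X. tropicalis* libraries 7.02, 10.5 and 10.2 CPM. On the S copy, on chromosome 8S, hybrids had 38.4, 35.2 and 52.1 CPM and *X. tropicalis* libraries 21.5, 33.6 and 38.4 CPM. All hybrid libraries lay above the *X. tropicalis* libraries on the L copy and the groups overlapped on the S copy (edgeR adjusted p = 0.362 for L and 0.233 for S). In *X. tropicalis* libraries the counts on the S copy came to 33.2% of those on *pou5f3.3* itself, and those on the L copy to 9.80%.

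More counts lay on 5 further POU models that the rule does not take than on the 4 *pou5f3* features. The 5 models were added here after their values were seen, and other POU genes were not counted. Model Xetrov90019679m lies on *X. tropicalis* chromosome 8 like *pou5f3.1* and *pou5f3.3*, and the table gives it the human name *POU3F3*, while its *X. laevis* counterparts Xetrov90019679m.L and Xetrov90019679m.S carry *POU5F1*. It had 449, 304 and 363 CPM in hybrids, against 1086, 785 and 806 CPM in *X. tropicalis*. It fell by 1.26 ± 0.17 on the log2 scale (SE, edgeR adjusted p = 0.0019), with no overlap. Its L counterpart had 577, 637 and 829.5 CPM in hybrid embryos and 45.7, 34.0 and 29.05 CPM in *X. tropicalis*. Its S counterpart had 289.6, 293 and 426 CPM in hybrid embryos and 0.542, 2.11 and 1.70 CPM in *X. tropicalis*. Both paternal models lay far above background in every hybrid library, with edgeR adjusted p of 2.64e-15 and 1.99e-15.

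The remaining unnamed *POU5F1* models were above background too, with 116.7 ± 33.6 CPM on chromosome 8L and 39.5 ± 6.64 CPM on 8S in hybrids, against 11.9 ± 1.70 and 0.169 ± 0.0868 CPM in *X. tropicalis* (SD, n = 3). Summed over the 4 member features and these 5 models, *X. tropicalis* models gave 569 ± 111 CPM in hybrid embryos and 1233 ± 187 CPM in *X. tropicalis*. *X. laevis* models gave 1228 ± 257 CPM in hybrid embryos and 90.2 ± 2.07 CPM in *X. tropicalis*. The total was 1738, 1591 and 2061 CPM in hybrid embryos and 1529.7, 1171 and 1269 CPM in *X. tropicalis*. All hybrid libraries were higher on this scale of the *X. tropicalis* features. That scale sets hybrid library sizes below their total counts and *X. tropicalis* sizes above them. The order of hybrid replicate 41 and *X. tropicalis* replicate 37 depends on it. The *X. laevis* share of these counts was 60.2, 70.1 and 73.8% in hybrids, against 5.75, 7.72 and 7.26% in *X. tropicalis*. Under the human name *POU5F1*, hybrids had 1399 ± 217 CPM and *X. tropicalis* 485 ± 44.9 CPM (log2 fold change 1.53 ± 0.13 SE, edgeR adjusted p = 4.44e-05). That sum joins 8 features, 6 of them *X. laevis*. It holds Xetrov90019679m.L and Xetrov90019679m.S and leaves out Xetrov90019679m, at 892 CPM in *X. tropicalis*, so its rise is not read as a rise of both species together.

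**Figure D2:**
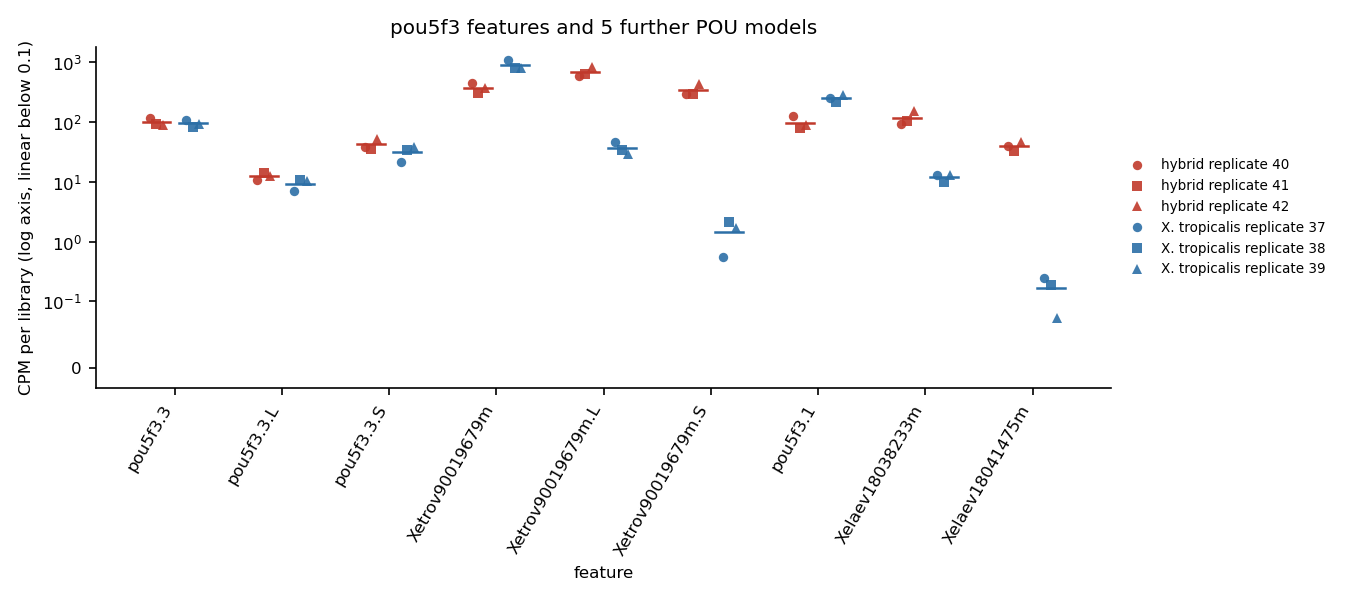
Level of the 4 *pou5f3* features and of the 5 further POU models, in CPM on a log axis that is linear below 0.1. Points are single libraries, hybrid in red at the left and *X. tropicalis* in blue at the right, and bars are means. *X. tropicalis* models pou5f3.1 and Xetrov90019679m are lower in all hybrid libraries, and the *X. laevis* models Xetrov90019679m.L, Xetrov90019679m.S, Xelaev18038233m and Xelaev18041475m are higher.

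*sall4* took more counts than any other member in every library. Its *X. tropicalis* feature had 1497, 1785 and 1855 CPM in hybrids, against 1992, 2205 and 2104 CPM in *X. tropicalis*. The groups did not overlap, but the log2 fold change of -0.29 ± 0.10 (SE) missed the threshold with edgeR (adjusted p = 0.167). With plain library totals, which shift the median of all *X. tropicalis* features to -0.15, it stood at -0.45 and passed (edgeR adjusted p = 0.0170).

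Both paternal *sall4* copies, the unnamed models Xelaev18043463m on chromosome 9_10L and Xelaev18046188m on 9_10S, were above background. The L copy had 112, 179 and 166 CPM in hybrid embryos and 1.44, 3.16 and 1.83 CPM in *X. tropicalis* (edgeR adjusted p = 1.87e-14). On the S copy, hybrids had 60.7, 116 and 101 CPM and *X. tropicalis* libraries 0.460, 0.626 and 0.4305 CPM (edgeR adjusted p = 2.34e-15). The L copy took more counts than the S copy in each of the 3 hybrid libraries, by 1.53 to 1.85 times. Over both species, the human name *SALL4* had 1921 ± 208 CPM in hybrid embryos and 2370.2 ± 113 CPM in *X. tropicalis* embryos (log2 fold change -0.30 ± 0.10 SE, edgeR adjusted p = 0.0979), a difference that DESeq2 called (adjusted p = 0.0357).

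*sall1*, a zinc-finger gene with roles in kidney, limb and neural development, fell on its *X. tropicalis* feature and had counts above background on both paternal copies. The *X. tropicalis* feature had 292, 225 and 246 CPM in hybrids, against 412, 419 and 414 CPM in *X. tropicalis*. It fell by 0.71 ± 0.12 on the log2 scale (SE, edgeR adjusted p = 0.00809). All hybrid libraries lay below the narrow *X. tropicalis* range, and the call held in every alternative fit (adjusted p up to 0.0453).

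*sall1.L* had 86.3, 102 and 119 CPM in hybrid embryos and 1.79, 0.845 and 0.225 CPM in *X. tropicalis* (edgeR adjusted p = 9.26e-12). *sall1.S* had 70.9, 62.5 and 83.2 CPM in hybrid embryos and 0.215, 0.0730 and 0.131 CPM in *X. tropicalis* (edgeR adjusted p = 1.36e-15). The L copy lies on chromosome 4L. Of the tested 4L features, 22.5% were above background, against 45.2% of those on 4S, and *sall1.L* was among them, at 1.22 to 1.63 times the CPM of *sall1.S*. Summed over both species, *sall1* came to 429 ± 34.1 CPM in hybrid embryos and 416 ± 3.02 CPM in *X. tropicalis*. With the human-named table and its own scaling, the sign turned, with 422 ± 38.6 CPM in hybrid embryos and 469 ± 3.51 CPM in *X. tropicalis* embryos (log2 fold change -0.15 ± 0.10 SE, edgeR adjusted p = 0.442).

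**Figure D3:**
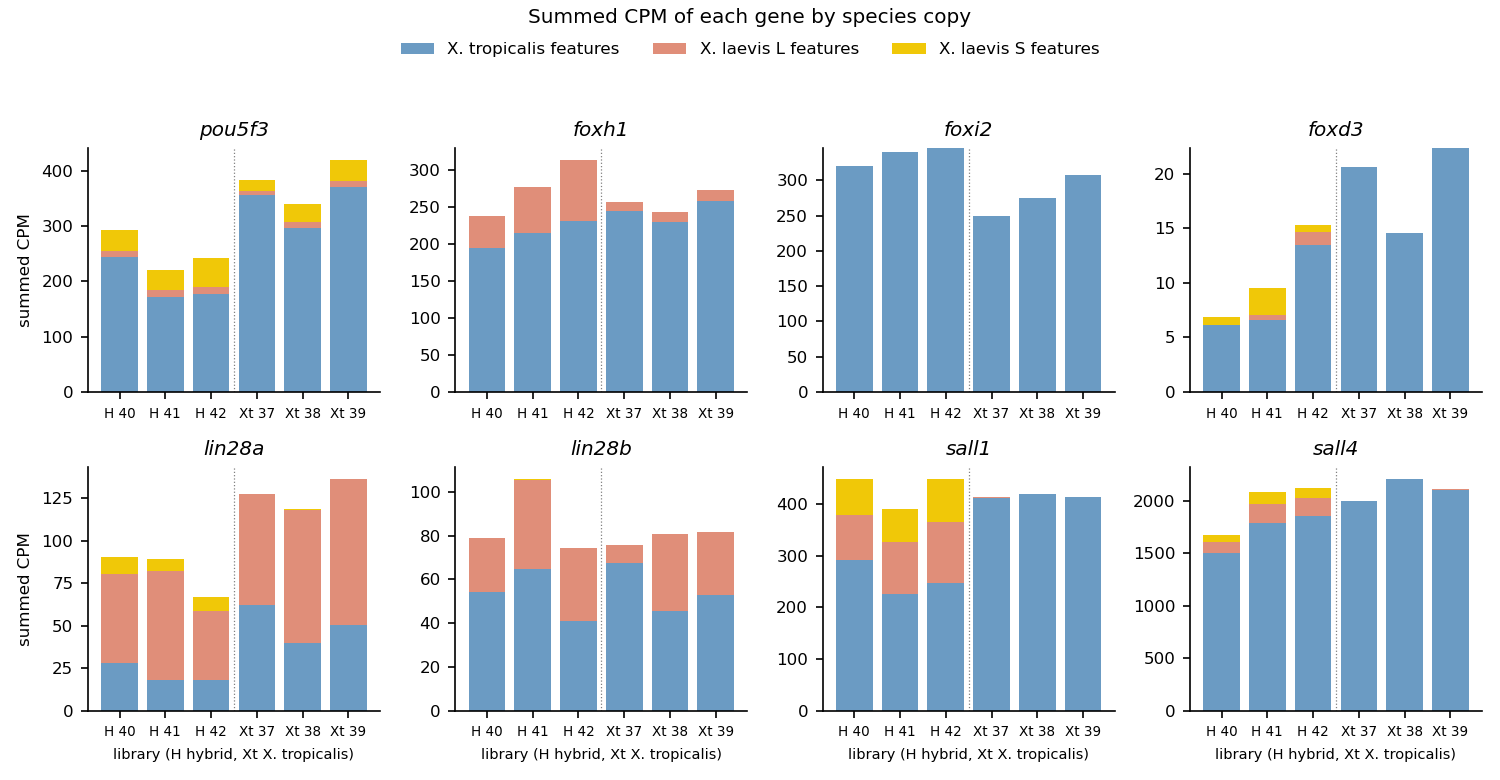
Summed CPM of each gene in each library, hybrid libraries (H) at the left and *X. tropicalis* libraries (Xt) at the right of each panel. Stacked bars give the part on *X. tropicalis* features, on *X. laevis* L features and on *X. laevis* S features. The *X. laevis* part makes up 35.0 to 45.0% of *sall1* in hybrid embryos and is 0% of *foxi2*, and for *lin28a* and *lin28b* it is large in *X. tropicalis* libraries too.

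*lin28a* was lower in hybrids, on its *X. tropicalis* feature and in the sum of both species. The *X. tropicalis* feature had 28.1, 18.0 and 17.7 CPM in hybrids, against 61.9, 39.5 and 50.3 CPM in *X. tropicalis* embryos (log2 fold change -1.25 ± 0.25 SE, edgeR adjusted p = 0.0186). No hybrid library reached the lowest *X. tropicalis* library. The call ended when 1 of 4 libraries was left out, hybrid replicates 41 and 42 and *X. tropicalis* replicates 37 and 39 (edgeR adjusted p as high as 0.0964).

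In *X. tropicalis* libraries more counts lay on *lin28a.L*, a copy those embryos do not carry, than on *lin28a*. That copy had 52.5, 64.1 and 40.98 CPM in hybrid embryos and 65.4, 78.7 and 85.9 CPM in *X. tropicalis*, so every hybrid library lay below the background libraries (log2 fold change -0.54 ± 0.25 SE, edgeR adjusted p = 0.0868). With TMM factors from all features it was called below (-0.85, edgeR adjusted p = 0.00589). Summed counts on *lin28a.L* came to 252% of those on *lin28a* in hybrids (187 to 355% by library). In *X. tropicalis* libraries they came to 152% (106 to 199%). As *lin28a* was lower in hybrids, the *X. tropicalis* level may not be the background that applies in hybrids, which was not tested. The species split of *lin28a* counts is uncertain, and the sum under the human name *LIN28A* does not depend on it. Hybrids had 80.7 ± 14.0 CPM in that sum and *X. tropicalis* 144 ± 9.98 CPM (SD, n = 3), and it fell by 0.83 ± 0.15 on the log2 scale (SE, edgeR adjusted p = 0.00725, up to 0.0380 over the alternatives). Human names were called lower in 2.86% of 12682 cases and higher in 5.05%. The S copy on chromosome 2S was above background, with 9.54, 6.98 and 8.08 CPM in hybrid embryos and 0.348, 0.303 and 0.243 CPM in *X. tropicalis* (edgeR adjusted p = 2.91e-06).

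*lin28b*, the paralogue with the same RNA-binding domains, did not pass on any feature. Its *X. tropicalis* feature had 54.2, 64.9 and 40.8 CPM in hybrid embryos and 67.6, 45.7 and 52.7 CPM in *X. tropicalis* embryos (log2 fold change -0.06 ± 0.21 SE, edgeR adjusted p = 0.942), and the groups overlapped. *lin28b.L* had 24.7, 40.8 and 33.5 CPM in hybrid embryos and 8.11, 35.0 and 29.0 CPM in *X. tropicalis*. Replicates 38 and 39 of *X. tropicalis* lay within the hybrid range and replicate 37 below it. *lin28b.S* had 18, 42 and 0 counts in hybrid embryos and no count in *X. tropicalis*, without passing (edgeR adjusted p = 0.142). With the *X. tropicalis* group set at 3 counts the ratio was 26.8-fold, which does not cover the spread among hybrid libraries. Under *LIN28B* the sum of both species was 85.0 ± 16.2 CPM in hybrid embryos and 89.5 ± 3.21 CPM in *X. tropicalis* (edgeR adjusted p = 0.846). On the scale of the *X. tropicalis* features the sign turned, with means of 86.5 CPM in hybrid embryos and 79.4 CPM in *X. tropicalis*.

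Among the forkhead factors, neither the main *foxh1* feature nor *foxi2* passed the test. *foxh1* had 181, 193 and 199 CPM in hybrid embryos and 175, 159.8 and 188 CPM in *X. tropicalis* embryos (log2 fold change 0.13 ± 0.12 SE, edgeR adjusted p = 0.642), with overlapping groups and a sign that turned with plain library totals (-0.03). *foxi2* had 321, 340.3 and 345.5 CPM in hybrids, against 249, 275 and 307 CPM in *X. tropicalis*. Its hybrid libraries all lay above the *X. tropicalis* libraries, at a log2 fold change of 0.27 ± 0.11 SE that did not pass (edgeR adjusted p = 0.238).

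The paternal copies with those symbols had few counts. *foxi2.L* on chromosome 7L, the only *X. laevis* copy of *foxi2* in the table, had 0 counts in each hybrid library and 1, 0 and 34 counts in *X. tropicalis*. A total of 0 counts allows up to 3 counts over the hybrid group, against 75102 counts on the *X. tropicalis* feature in the same libraries. *foxh1.L* on 6L had 4.07, 5.58 and 5.19 CPM in hybrid embryos and no count in *X. tropicalis*, 498-fold higher with the *X. tropicalis* group set at 3 counts (edgeR adjusted p = 1.71e-07). *foxh1.S* had 0, 4 and 1 counts in hybrid embryos and 1, 0 and 1 counts in *X. tropicalis*, too few to be tested.

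The second *foxh1* model, *foxh1.2*, lies on an unplaced *X. tropicalis* scaffold and was lower in hybrids while its paternal counterpart was above background. It had 13.7, 21.3 and 31.6 CPM in hybrids, against 68.6, 69.7 and 70.03 CPM in *X. tropicalis*. It fell by 1.65 ± 0.27 on the log2 scale (SE, edgeR adjusted p = 0.00641, up to 0.0372 over the alternatives). *foxh1.2.L* on 6L had 39.5, 57.2 and 77.4 CPM in hybrids, against 13.2, 14.1 and 14.7 CPM in *X. tropicalis* embryos (log2 fold change 2.05 ± 0.30 SE, edgeR adjusted p = 2.95e-06). Hybrid replicate 42 was the highest and replicate 40 the lowest on both models. Over all *foxh1* features the human name *FOXH1* had 271 ± 32.1 CPM in hybrid embryos and 290.7 ± 16.1 CPM in *X. tropicalis* embryos (log2 fold change -0.10 ± 0.12 SE, edgeR adjusted p = 0.695). On the scale of the *X. tropicalis* features the sign turned, with means of 276 CPM in hybrid embryos and 258 CPM in *X. tropicalis*.

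*foxd3* took few counts in either group. Its *X. tropicalis* feature had 6.14, 6.60 and 13.5 CPM in hybrids, against 20.6, 14.5 and 22.3 CPM in *X. tropicalis*, with no overlap. The log2 fold change of -1.13 ± 0.36 SE missed the threshold (edgeR adjusted p = 0.127) and passed without hybrid replicate 42 (-1.59, adjusted p = 0.0424). The paternal copies gave 0, 40 and 74 counts on *foxd3.L* (chromosome 4L) and 52, 211 and 45 counts on *foxd3.S* (4S) in hybrids, and no count in *X. tropicalis*. With the *X. tropicalis* group set at 3 counts, *foxd3.L* was 51.0-fold and *foxd3.S* 138-fold higher (edgeR adjusted p = 0.0398 and 0.00108). These ratios do not cover the spread among hybrid libraries. The call of *foxd3.L*, which had no count in hybrid replicate 40, was lost without any one library other than that replicate (edgeR adjusted p up to 0.215) and with TMM factors from all features (0.0507). Under the human name *FOXD3* only 1 of 5 features is a member, and neither paternal copy has that name in the table, so that sum is not read as *foxd3*. The name *FOXI1* likewise joins 11 features, 2 of them of *foxi2*, and is not read as *foxi2*.

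**Figure D4:**
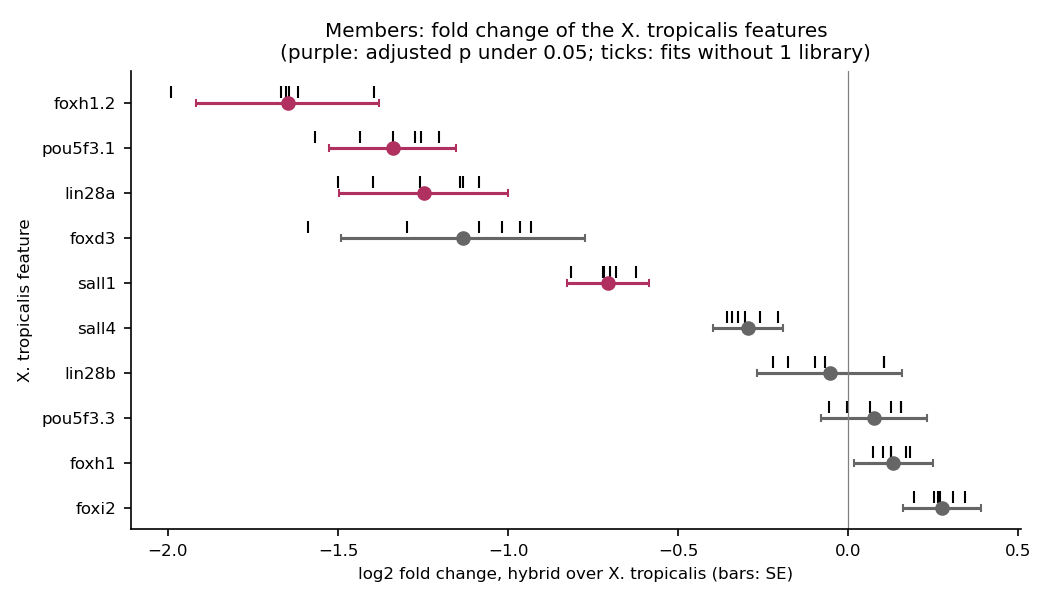
Log2 fold change of the 10 *X. tropicalis* features, hybrid over *X. tropicalis*, with SE bars. Purple marks an adjusted p under 0.05 (*foxh1.2*, *pou5f3.1*, *lin28a* and *sall1*), and ticks above a point give the fits without 1 library, which cross 0 for *lin28b* and *pou5f3.3*.

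Over the 16 *X. laevis* member features, 9 were above the *X. tropicalis* background, 0 below and 5 not called. The remaining 2, *foxi2.L* and *foxh1.S*, had fewer than 10 counts over the hybrid libraries and were not tested. That filter reads hybrid counts only, so a feature near 0 in hybrids could not be called below, whatever its background. The shares and medians that follow cover only features past it. Before adjustment 1 feature, *lin28a.L*, was below at p under 0.05, with no share over all features taken there, and DESeq2 called 0 of the members below. Over all 23919 *X. laevis* features tested, 40.5% were above background and 0.196% below. With a filter of at least 5 CPM in 3 libraries instead, 3019 of 4499 features were above background, among them 6 members. The share over all thus depends on the filter, and the member count is not read as an excess over it. The median log2 ratio to background was 6.45 over the 14 members tested and 5.87 over all *X. laevis* features tested. Because the filter takes features by their hybrid counts, these medians are not read as a result. Over all *X. laevis* features with at least 5 CPM in 3 libraries, the median was 3.24. Members with no count in *X. tropicalis*, such as *foxh1.L*, have no finite ratio of CPM, and their fitted values enter the median all the same.

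**Figure D5:**
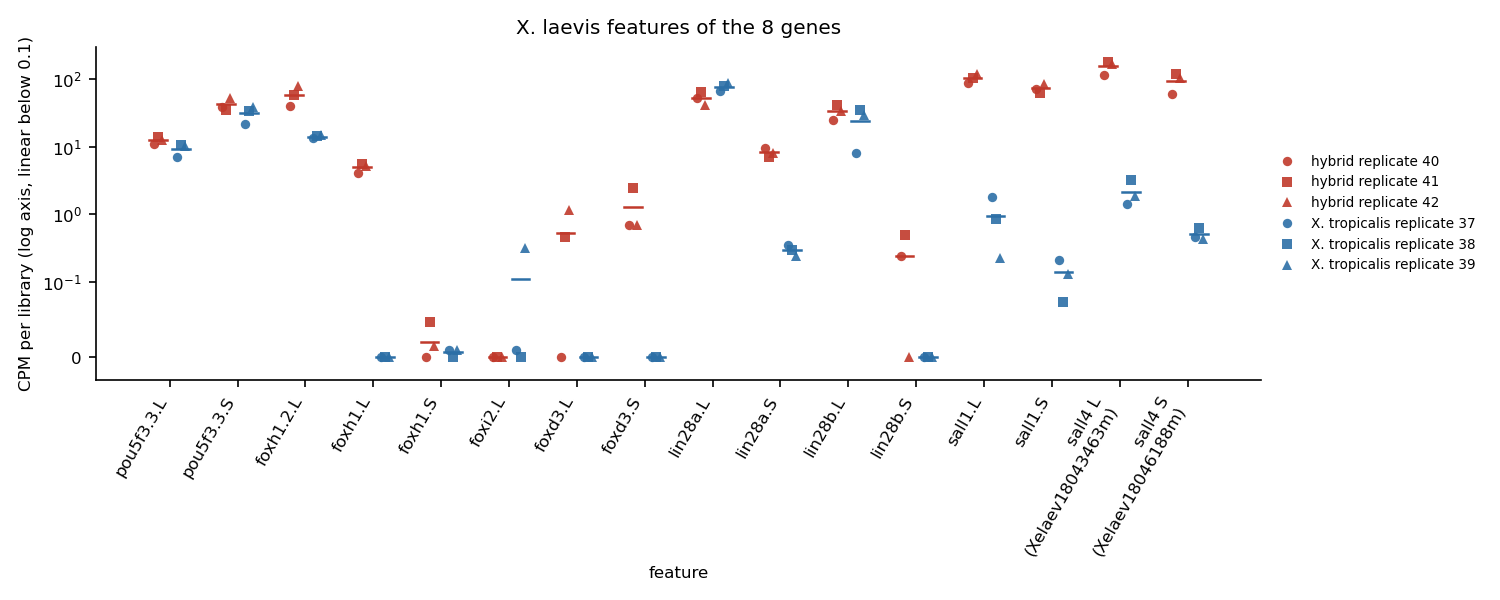
Level of each *X. laevis* feature of the members, in CPM on a log axis that is linear below 0.1. Points are single libraries, hybrid in red at the left and *X. tropicalis* in blue at the right (background), and bars are means. The copies of *sall1* and *sall4*, *lin28a.S* and *foxh1.L* stand far above background, while hybrids overlap it on *lin28b.L* and *pou5f3.3.S* and lie below it on *lin28a.L*.

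The *X. laevis* share of each gene's counts was taken in every library. *sall1* had 35.0, 42.3 and 45.0% in hybrid embryos and 0.484, 0.219 and 0.0858% in *X. tropicalis*. For *sall4* the share was 10.4, 14.2 and 12.6% in hybrid embryos and 0.0954, 0.171 and 0.108% in *X. tropicalis*. *foxh1*, over its 5 features, had 18.3, 22.7 and 26.3% in hybrid embryos and 5.13, 5.79 and 5.38% in *X. tropicalis*. These ranges do not overlap between groups for any of the 3 genes. Neither does the *X. laevis* share of all counts, at 15.4 to 17.6% in hybrids and 5.33 to 5.92% in *X. tropicalis*. *X. tropicalis* embryos carry no *X. laevis* genome, so the separation is not read as particular to these genes.

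The 4 *pou5f3* member features had a share of 16.9, 22.4 and 26.8% in hybrid embryos and 7.43, 13.0 and 11.6% in *X. tropicalis*. *foxd3* had 10.2, 30.9 and 12.0% in hybrid embryos and none in *X. tropicalis*. For *lin28a* the share was 74.0 ± 5.49% in hybrid embryos and 60.4 ± 7.92% in *X. tropicalis*, and for *lin28b* it was 38.5 ± 6.79% in hybrids and 29.9 ± 17.04% in *X. tropicalis* (SD, n = 3). The 2-sided exact permutation test gave p = 0.1 for *sall1*, *sall4*, *foxh1*, *foxd3*, *pou5f3* and *lin28a* (0.133 adjusted over the 8 members), the smallest value that 3 against 3 libraries allow. For *foxi2* and *lin28b* it gave p = 0.4 and 0.6 (exact permutation). The test was not run on other genes. The share of *lin28a* was higher in hybrids although its mean *X. laevis* CPM was 60.7 there, against 76.9 in *X. tropicalis*. Background, as its ratio to the *X. tropicalis* counts, was then taken off the *X. laevis* counts. The *X. laevis* share of what remained in hybrids averaged 40.7% for *sall1*, 18.8% for *foxh1*, 12.3% for *sall4* and 14.0% for *pou5f3*. For *foxh1* the ratio pooled *foxh1.2*, which fell in hybrids, with the main *foxh1* feature, which did not pass. In *X. tropicalis* libraries the counts on *foxh1.2.L* came to 20.2% of those on *foxh1.2*, while *foxh1.L* had none. The 18.8% depends on that pooling, and background was not taken off copy by copy. For *pou5f3* the ratio was taken over *pou5f3.1*, which fell in hybrids, together with *pou5f3.3*, which did not. Both *X. laevis* members are copies of *pou5f3.3* and neither passed against background. The rise in share and the 14.0% are therefore not read as paternal expression of *pou5f3*.

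Other genes of the same programme were read on their *X. tropicalis* features, from lists that exclude the members. The lists were chosen with earlier results of these data known, so their counts are a description and no test of enrichment. Lists overlap, so *tcf7l1*, *tfap2a*, *sox3*, *otx2* and others stand in more than 1. Of *X. laevis* features tested in these lists, 20 of 24 pluripotency partners and 32 of 42 Nodal and Foxh1 targets were above background. So were 20 of 21 early gastrula markers, 14 of 26 maternal factors and 27 of 33 general transcription and chromatin factors. Replication factors had 8 of 12, Lin28 and let-7 genes 6 of 18 and other *sall*, *foxi* and *foxd* genes 14 of 18. Over all *X. laevis* features tested it was 40.5%, and 3019 of 4499 with at least 5 CPM in 3 libraries. The lists were not taken with that second filter, and the first reads hybrid counts only. Their counts are therefore not read as an excess, and no list was summed over both species. Below background were 1 feature of the pluripotency partners and 1 of the maternal factors, and 0 in the other lists, against 0.196% over all. Over all 14079 *X. tropicalis* features tested, edgeR called 2.95% lower and 0.824% higher, with a median log2 fold change of 0.01. DESeq2 called 795 of them lower and 398 higher. Shares before adjustment were not taken over all features, so list counts before adjustment have none beside them. Of 26 tested features of pluripotency partners, 13 were lower in hybrid embryos and 0 higher, with a median log2 fold change of -0.76 (edgeR; 17 lower and 2 higher before adjustment, 16 and 0 with DESeq2). Lower features with small adjusted p included *id3*, a BMP-responsive inhibitor of bHLH factors (-1.25), *prdm1* (-2.19), *otx2*, a head homeobox gene (-2.00), the SoxB1 gene *sox2* (-1.93) and the Wnt pathway repressor *tcf7l1* (-1.26). The lower features numbered 9 to 12 with a library left out.

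Of 29 tested features of Nodal and Foxh1 targets, 14 were lower and 0 higher, with a median of -1.26 (edgeR; 20 and 0 before adjustment, 18 and 0 with DESeq2). They included the BMP antagonist gene *chrd* (-1.65), *otx2* (-2.00), *nodal3.2* (-1.27), *gata4* (-1.87), *hhex* (-2.20) and *foxa4* (-1.26). Without hybrid replicate 41 or *X. tropicalis* replicate 39 the count was 8. Of 15 tested markers of the early gastrula, 8 were lower and 0 higher (edgeR; 11 and 0 before adjustment, 11 and 0 with DESeq2; 4 lower without hybrid replicate 41, 5 without *X. tropicalis* replicate 39), among them *t* (-0.999), *gsc* (-1.15) and *sox17a* (-1.10).

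Of 25 tested features of maternal transcription factors of genome activation, 5 were lower and 1 higher, with a median of -0.38 (edgeR; 10 and 2 before adjustment, 7 and 2 with DESeq2). The higher one was *foxo3*, with 64.2 ± 5.96 CPM in hybrid embryos and 30.3 ± 4.80 CPM in *X. tropicalis* embryos (log2 fold change 1.08 ± 0.18 SE, edgeR adjusted p = 0.00701). The lower ones were *tcf7l1*, *tfap2a* (-1.04), *smad4.1* (-2.03), *sox11* (-0.62) and the SoxB1 gene *sox3* (-0.49), and 3 were lower without hybrid replicate 41 or *X. tropicalis* replicate 38 or 39. Of 28 features of general transcription and chromatin factors, 2 were lower, the bromodomain gene *brd2* (-0.80) and the acetyltransferase gene *ep300* (-0.72), and 0 higher (edgeR; 4 each before adjustment, 3 each with DESeq2; 0 lower without hybrid replicate 41, 1 without hybrid replicate 42 or *X. tropicalis* replicate 39). The median of that list was -0.04.

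The list of replication factors also holds cell cycle and checkpoint genes such as *cdc25a*, a phosphatase, and *chek1*, a kinase. Of its 9 tested features, edgeR called 0 in either direction (3 higher and 1 lower before adjustment, 2 and 1 with DESeq2), with a median of -0.11. In the Lin28 and let-7 pathway, 1 of 13 was lower, the Argonaute gene *ago2* (-1.32), and 0 higher (edgeR; 2 lower and 1 higher before adjustment, 1 and 1 with DESeq2; 3 lower without hybrid replicate 40), with a median of -0.34. Of 8 other *sall*, *foxi* and *foxd* features, *foxi1* was higher and *sall3* lower, with a median of -0.73. *foxi1* had 67.5, 60.3 and 69.4 CPM in hybrid embryos and 31.1, 20.7 and 23.02 CPM in *X. tropicalis* embryos (log2 fold change 1.40 ± 0.20 SE, edgeR adjusted p = 0.00246). *sall3* (-2.95) was no longer called when any of hybrid replicates 40 and 41 and *X. tropicalis* replicates 37 and 39 was left out. The list of later tissue markers had 1 tested feature, *rho*, which was not called (edgeR adjusted p = 0.715).

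The pattern over the 6 libraries was compared with 6826 other named *X. tropicalis* features by Pearson correlation of log2 CPM, as a description of libraries that share the group difference. The feature most like *pou5f3.1* was *znf217* (r = 0.998), and the one most like *foxi2* was *trip12* (r = 0.997). For *lin28a* it was *ahnak-like* (r = 0.999), for *sall4* *smg5-like.2* (r = 0.991) and for *sall1* *MGC89906* (r = 0.995). For the other 5 features the highest r ranged from 0.975, for *foxh1* with *sik2-like*, to 0.995, for *foxh1.2* with *ppap2b*. Each r is the highest of 6826 values over 6 libraries. Members that were not called also had a high one, such as *lin28b* (0.981) and *pou5f3.3* (0.978), so it is not read as a link between genes.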

How the data were processed

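PolyA RNA of whole embryos was sequenced in 6 libraries, and the authors deposited raw counts per feature of either species, without normalization, with another count table by human name. BWA 0.7.10 was among the tools, per the submitters' processing notes. The counting program, strand setting, transcript models and genome builds are not stated in the labels or headers used, so reads shared by homeologs, by both species or by overlapping genes may lie on any of them.

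Groups came from the labels, and replicate numbers are not shared between groups. The series calls the libraries biological replicates without naming clutches or parents, and p-values cover only the spread among them. Counts were tested with edgeR 4.0.16 (R 4.3.3; quasi-likelihood, TMM factors, Benjamini-Hochberg at 0.05), separately for *X. tropicalis* features and human names (edgeR filter) and for *X. laevis* features reaching 10 counts in the summed hybrid libraries, against *X. tropicalis* libraries as background. SE was taken as |log2 fold change| over √F. Alternatives were DESeq2 1.42.0, other scalings and filters, and each library left out. Floors of 3 counts cover counting error only, in the group without counts, and not the spread among libraries of the other group. Shares were tested by exact permutation (scipy 1.17.1) over 20 labelings. Figures used matplotlib 3.10.9. Every member feature is named. List genes are the up to 6 called features per list and direction with the smallest adjusted p, of which 1 is not reported here, and likeness takes the feature with the highest r at a mean of at least 10 CPM. Members and lists were chosen with earlier results of these data known. No sequences were used.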

Additional observations from a re-analysis of the deposited data

How the results depend on the processing

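No paired analysis was possible because the replicate numbers are not shared between the groups. Among recomputed values of single member features, 203 kept direction and call, 6 turned sign, 3 gained a call and 10 lost it; among human names these were 76, 1, 1 and 2. The log2 fold change turned sign, without a call, with library totals for *pou5f3.3* (-0.0737) and *foxh1* (-0.0252). With a library left out it spanned -0.0577 to 0.155 for *pou5f3.3*, negative without hybrid replicate 40 or *X. tropicalis* replicate 38 (-0.00372). It spanned -0.222 to 0.105 for *lin28b*, positive without hybrid replicate 42 or *X. tropicalis* replicate 37, and -0.238 to 0.0306 for *LIN28B*, positive without hybrid replicate 42. Over all *X. tropicalis* features, 116 were called higher, against 259 with no filter, 398 with DESeq2 and 54 to 160 with a library left out. The 415 called lower became 681 with library totals, 795 with DESeq2 and 264 to 487 with a library left out. Of *X. laevis* features above background, 9699 became 3019 with a filter of 5 CPM, which tested 4499 features rather than 23919. With TMM factors from all features, 103 were below background, against 47, and 1 member, *lin28a.L*, against 0. Human names called higher numbered 640, against 1046 with DESeq2 and 342 to 647 with a library left out. Those lower numbered 363, against 686 with DESeq2 and 164 to 402 with a library left out, and the member names among them 1 to 2. The *FOXD3* call was lost without hybrid replicate 41 or *X. tropicalis* replicate 39. The *X. laevis* share, hybrid minus *X. tropicalis*, was 13.6 percentage points for *lin28a*. With background, as its ratio to *X. tropicalis* counts, taken off the *X. laevis* counts, the share of what remained was 55.6%, although the mean *X. laevis* CPM of *lin28a* was 60.7 in hybrids, against a background of 76.9. For *pou5f3* the difference in share was 11.4 points, and 61.1 with the 5 other models, an alternative chosen after seeing the data. With a library left out it spanned 8.96 to 13.9 for *pou5f3*, 9.13 to 16.7 for *lin28a* and -0.926 to 15.4 for *lin28b*, negative without *X. tropicalis* replicate 37. Where a value moved, the cause was not tested.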
